A study of Mus musculus with 9 samples.

Results

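The Notch genes described here are 10 named members of the pathway: the receptors Notch1, Notch2, Notch3 and Notch4, the ligands Dll1, Dll4, Jag1 and Jag2, and the target genes Hes1 and Hey1. They were found by matching Ensembl identifiers to GRCm38 gene symbols, and they are 10 of the 39179 genes listed in the count tables. The count tables hold 9 libraries of RNA from capillaries of the ossification front (OF), the zone of the femur next to the growth plate where new bone is laid down. Single capillaries with the cells around them were cut from unfixed frozen sections by laser microdissection, and the pieces of 1 sample were pooled. Juvenile mice were 4 weeks old (5 libraries) and adult mice were 12 weeks old (4 libraries). All were untreated Tg(TIE2GFP)287Sato/J mice on a C57BL/6 background, in which the endothelial Tie2 promoter drives green fluorescent protein. The reporter served to locate the vessel, so each library holds RNA of every cell in the pieces and not of endothelial cells alone. A lower value in bulk tissue may mean fewer cells of a type or less RNA per cell, and these cannot be told apart.

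Notch signalling passes between touching cells. A Delta-like or Jagged ligand on one cell binds a Notch receptor on its neighbour, and the pull on the receptor exposes it to an ADAM protease and then to the γ-secretase complex. The freed intracellular domain enters the nucleus, joins RBPJ and a Mastermind-like protein on DNA and switches on genes of the Hes and Hey families, which encode transcriptional repressors. In blood vessels the pathway sets the choice between tip and stalk cells and between arterial and venous fate. In long bone, endothelial Notch is known for its part in the growth of the columnar vessels near the growth plate.

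Total counts ran from 4856833 to 7398483 in the juvenile libraries and from 5821596 to 8077362 in the adult libraries, and 3 counts correspond to between 0.347 and 0.638 CPM, the unit used below, in which counts are set against the scaled total of their library. The 15 endothelial markers listed, such as Pecam1 and Cdh5, were all detected well enough to be tested and 0 were called different, against 3.88% of all genes, and their summed level was 815 to 1236 CPM in juveniles and 976 to 1217 CPM in adults. Within that list Egfl7 was the most abundant marker and Erg the least, and Erg was at 0.125 CPM in adult 4. Among the 9 pericyte and smooth muscle markers with enough counts to be tested, Pdgfrb was highest and Des lowest. The whole list of 10 summed to 469 to 731 CPM in juveniles and 463 to 754 CPM in adults. Behind these sums single markers moved in opposite directions. The log2 fold change, juvenile over adult, was -2.32 for Rgs5, 1.11 for Abcc9 and 0.91 for Cspg4. It was positive for 4 of the 9 markers tested, and 0 were called different. The make-up of the pieces differed in other ways. Neutrophil markers summed to 18.1 to 73.4 CPM in juveniles, to 102 CPM in adult 2 and to 3532 to 4422 CPM in the other adults. Osteoblast markers summed to 97296 to 121650 CPM in juveniles and to 37298 to 59399 CPM in adults, a sum made up mostly of Col1a1 and Ibsp. Of these 12 markers edgeR called 6 higher in juveniles and 2 higher in adults, Bglap and Bglap2. The part of these cell types in any Notch result was not tested.

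All 10 members passed the filter on low counts, and 0 of 10 differed between the ages at an adjusted p under 0.05, where 520 of the 13418 genes tested did (3.88%, with 1.99% higher in juveniles and 1.89% higher in adults). The test was edgeR's quasi-likelihood test with Benjamini-Hochberg adjustment over all genes tested. DESeq2, which called 9.47% of its genes, and limma's voom with sample quality weights also called 0 members. At an unadjusted p under 0.05, edgeR marked only Notch2 (17.3% of all genes), voom only Notch2, and DESeq2 Notch2 and Jag2. The CPM ranges of the ages overlapped for every member, whereas they were separate for 9.15% of all genes tested. Log2 fold changes, given throughout as juvenile over adult, were positive for 6 of 10 members and for 49.5% of all genes, with a median of 0.16 over the members and -0.01 over all genes.

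**Figure D1:**
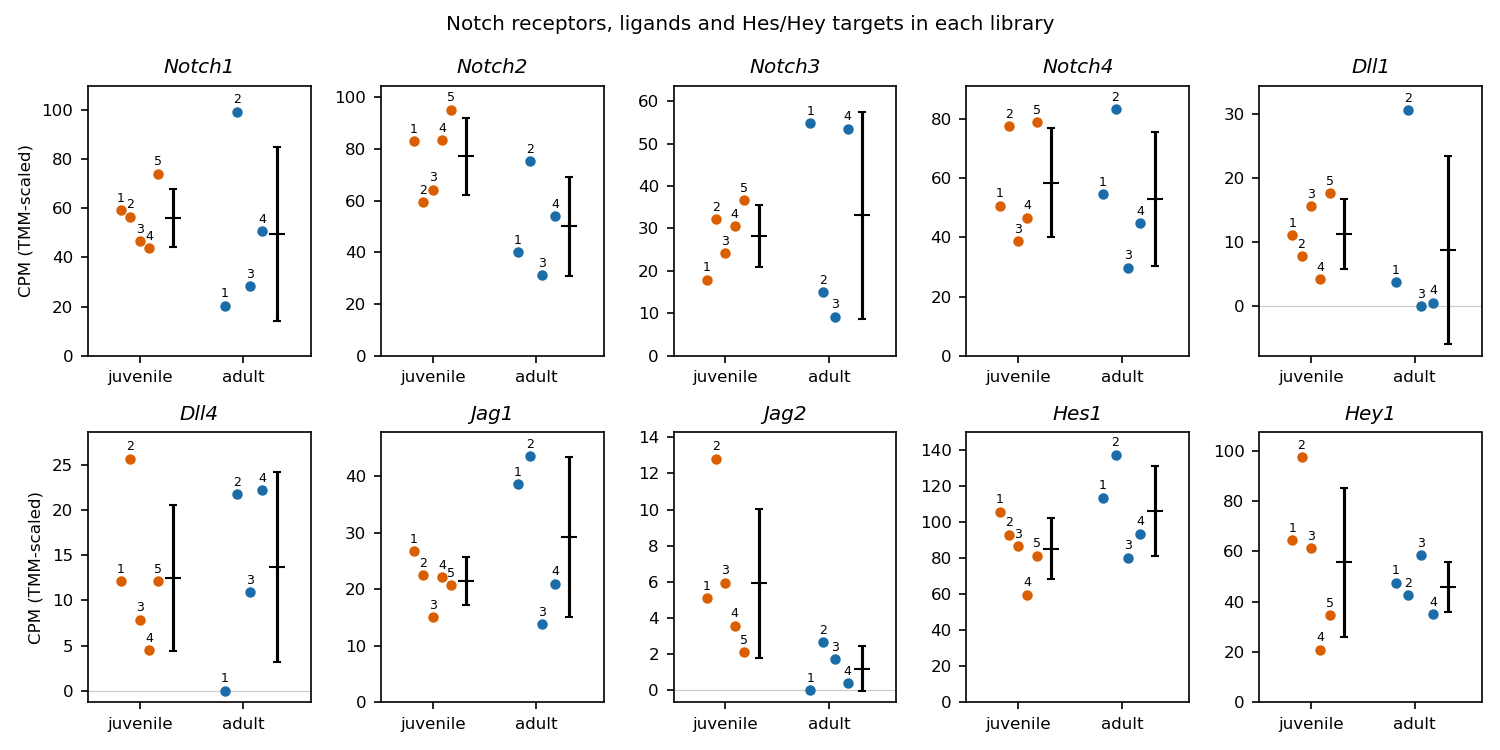
Level of each member in every library, in CPM scaled by the trimmed mean of M-values (TMM), on linear axes. Points are libraries with their replicate number, and the bars show mean ± SD of 5 juvenile and 4 adult libraries. Ranges overlap for all 10 genes, and adult 2 is the highest adult library for 7 of them.

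Among the receptors, Notch2 had the smallest p. It is a broadly expressed receptor, known in bone for its role in osteoclast and osteoblast lineages, and lies at chr3:98013527-98150361 (GRCm38, plus strand). Its level was 83.0, 59.5, 64.3, 83.3 and 95.2 CPM in juveniles 1 to 5 and 40.1, 75.2, 31.3 and 53.9 CPM in adults 1 to 4. Adult 2 lay within the juvenile range, and the other 3 adults lay below every juvenile. The means were 77.1 ± 14.8 CPM (SD, n = 5) and 50.1 ± 19.1 CPM (SD, n = 4), with a log2 fold change of 0.62 (SE 0.28, 95% interval 0.02 to 1.22). The unadjusted p of the quasi-likelihood test was 0.0441 and the adjusted p 0.268, so the difference did not pass. Leaving out adult 2 gave a log2 fold change of 0.86 with an adjusted p of 0.0996 by edgeR. That was the largest of the 18 alternatives run, over which the value ran from 0.44 to 0.86. The smallest came without adult 3, with an edgeR adjusted p of 0.480.

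Notch1, the receptor through which Dll4 restrains sprouting, lies at chr2:26457903-26516663 on the minus strand. Juveniles 1 to 5 had 59.3, 56.6, 46.6, 43.7 and 74.0 CPM, and adults 1 to 4 had 20.5, 99.2, 28.5 and 50.6 CPM. The adult values surrounded the juvenile ones on both sides, with adult 1 lowest and adult 2 highest of all 9 libraries. This gave a log2 fold change of 0.18 (SE 0.40, 95% interval -0.69 to 1.04) with an edgeR adjusted p of 0.893. Without adult 1 it was -0.10 and without adult 3 it was -0.03. Exons of Notch1 overlap those of 2 transcripts on the opposite strand, 0610009E02Rik and Gm13568, which had 23 to 183 and 47 to 213 counts. The library kit does not mark strand, so reads from the shared stretches cannot be assigned to one gene. Exons of Notch3, Dll1 and Dll4 also overlap opposite-strand transcripts, Gm17276, A930024N18Rik and Gm14207. These had at most 26, 14 and 10 counts in a library.

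Notch4, which is largely restricted to endothelium, is at chr17:34564268-34588503 (plus strand). In juveniles it measured 50.8, 77.5, 38.7, 46.7 and 79.1 CPM, and in adults 54.6, 83.3, 29.8 and 44.7 CPM. Each age held libraries near the bottom and the top of the shared range. The log2 fold change of 0.14 (SE 0.33) had a 95% interval of -0.56 to 0.85, which lies inside a 2-fold change in either direction, and the edgeR adjusted p was 0.894.

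Notch3 is the receptor of pericytes and vascular smooth muscle and lies at chr17:32120820-32166852 on the minus strand. Its juvenile values were 17.9, 32.1, 24.3, 30.6 and 36.7 CPM, and its adult values 54.8, 15.03, 9.28 and 53.5 CPM. Adults 1 and 4 lay above every juvenile and adults 2 and 3 below every juvenile. Between the ages the log2 fold change was -0.23 (SE 0.50, 95% interval -1.30 to 0.84, edgeR adjusted p = 0.888). It changed sign when adult 1 (0.11) or adult 4 (0.08) was left out. The summed level of the 10 pericyte and smooth muscle markers was 754, 517, 463 and 654 CPM in adults 1 to 4. Adults 1 and 4 lay above adults 2 and 3 for 4 of these markers (Rgs5, Kcnj8, Tagln and Des), whereas Pdgfrb, Cspg4 and Mcam were highest in adult 2, and this split was looked at after the values were seen. The part of mural cell content in the Notch3 values was not tested.

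Among the ligands, Jag2, best known from epithelia and limb development (chr12:112907819-112929776, minus strand), had the smallest p and the largest fold change of the members. It measured 5.08, 12.8, 5.96, 3.57 and 2.12 CPM in juveniles and 0, 2.67, 1.73 and 0.376 CPM in adults. The ranges met only where juvenile 5 lay below adult 2. These values rest on 10 to 89 counts per juvenile library and on 0 to 16 per adult library. The log2 fold change was 2.30 (SE 1.13, 95% interval -0.14 to 4.75), and the adjusted p was 0.321 with edgeR and 0.152 with DESeq2, so the difference did not pass.

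Jag1, a ligand of endothelial and mural cells that competes with Dll4 for Notch1, is at chr2:137081456-137116644 on the minus strand. Juveniles had 26.8, 22.5, 15.1, 22.2 and 20.8 CPM and adults 38.6, 43.6, 13.9 and 21.0 CPM. Adults 1 and 2 were above all juveniles and adult 3 was below them. Its log2 fold change was -0.45 (SE 0.39, 95% interval -1.30 to 0.41, edgeR adjusted p = 0.651), and it stayed negative in all 18 alternatives run.

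The Delta-like ligands were the most uneven members among the adults. Dll4, the ligand of tip cells and arterial endothelium, lies at chr2:119325784-119335962 on the plus strand. It had 12.1, 25.6, 7.87, 4.51 and 12.1 CPM in juveniles and 0, 21.7, 10.9 and 22.2 CPM in adults. Adult 1 had 0 counts among 8077362, while the other 3 adults lay within the juvenile range. The log2 fold change was -0.13 (SE 0.97, 95% interval -2.24 to 1.97, edgeR adjusted p = 0.973), and its sign turned in 6 of 17 alternatives.

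Dll1, a ligand known from arterial endothelium and from cells that support lymphocytes, is at chr17:15367354-15376872 on the minus strand. Juveniles had 11.1, 7.78, 15.5, 4.13 and 17.6 CPM and adults 3.70, 30.6, 0 and 0.501 CPM. Adult 2 was the highest of the 9 libraries and the other 3 adults lay below every juvenile. The adult counts were 32, 183, 0 and 4. With all libraries the log2 fold change was 0.37 (SE 1.18, 95% interval -2.18 to 2.93, edgeR adjusted p = 0.931). Without adult 2 it was 2.95, with an adjusted p of 0.206 by edgeR. Chondrocyte markers summed to 4682 CPM in adult 2 and to 363 to 1045 CPM in the other 8 libraries, and their part in its Dll1 level was not tested.

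**Figure D2:**
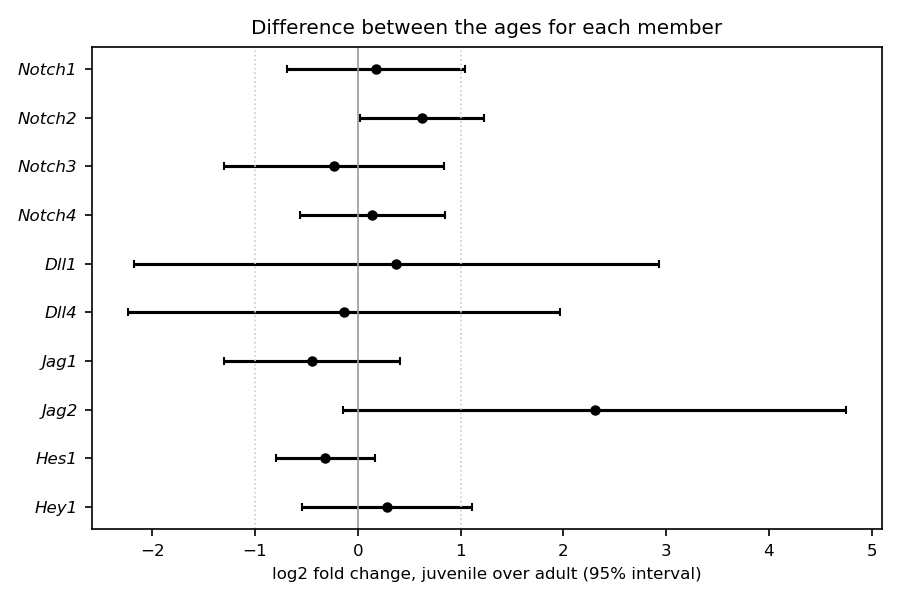
Log2 fold change of each member, juvenile over adult, from the edgeR fit to 9 libraries, with 95% intervals as bars. Dotted lines mark a 2-fold change in either direction. Only the interval of Notch2 (0.02 to 1.22) leaves out 0 before adjustment, and those of Dll1, Dll4 and Jag2 are the widest.

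Of the targets, Hes1 is the most general readout of Notch activity, though other signals also induce it. It lies at chr16:30064384-30067796 on the plus strand. Its level was 106, 92.9, 86.4, 59.7 and 81.2 CPM in juveniles and 113, 137, 80.2 and 93.5 CPM in adults. Juvenile 4 was the lowest library and adults 1 and 2 were the highest, with the rest mixed. The means were 85.2 ± 16.9 CPM (SD, n = 5) and 106 ± 24.8 CPM (SD, n = 4). The log2 fold change was -0.32 (SE 0.22, edgeR adjusted p = 0.543), and its 95% interval, -0.80 to 0.17, lies inside a 2-fold change. Hes1 and Notch4 were the only 2 members with so narrow an interval, and for the other 8 the interval reached past a 2-fold difference in at least one direction.

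Hey1, a target prominent in arterial endothelium and also expressed in osteoblasts, is at chr3:8663359-8667256 on the minus strand. It measured 64.5, 97.4, 61.3, 21.0 and 34.5 CPM in juveniles and 47.6, 42.6, 58.5 and 35.1 CPM in adults. The adult values fell within the juvenile range. Hey1 had a log2 fold change of 0.28 (SE 0.38, 95% interval -0.55 to 1.11, edgeR adjusted p = 0.799). Juveniles 4 and 5, the lowest libraries for Hey1, were also the only ones with Y-linked Ddx3y transcripts in number (524 and 439 counts, with 11 and 1 counts of Xist). All other libraries had 2965 or more Xist counts and at most 1 of Ddx3y. Without those 2 libraries the log2 fold change of Hey1 was 0.70 with an edgeR adjusted p of 0.391. Leaving out the lowest juveniles raises the juvenile mean in any case. Juveniles 4 and 5 were also the lowest juveniles for Hes1 and Jag2, and the part of sex in these values was not tested. Hey1 was the only member whose log2 CPM varied more among juveniles than among adults.

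The SD of log2 CPM was larger in adults than in juveniles for 9 of 10 members, for 44 of 58 other pathway genes and for 68.8% of all genes tested. Its median over the members was 0.43 in juveniles and 0.88 in adults, and over all genes 0.51 and 0.70. Adult 2 was the highest adult library for 7 of 10 members and for 24.5% of all genes, and adult 3 was the lowest for 6 of 10 members and for 23.3% of all genes. Adult 2 was also the adult library with the lowest neutrophil sum and the highest chondrocyte sum. It had the highest mean log2 CPM of endothelial markers (6.04, against 5.35 to 5.69 in the other adults). The summed level of the endothelial markers set it less apart, at 1217 CPM in adult 2 and 1192, 976 and 1000 CPM in adults 1, 3 and 4. The part of these differences in the spread was not tested. These counts describe 4 libraries and carry no test.

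**Figure D3:**
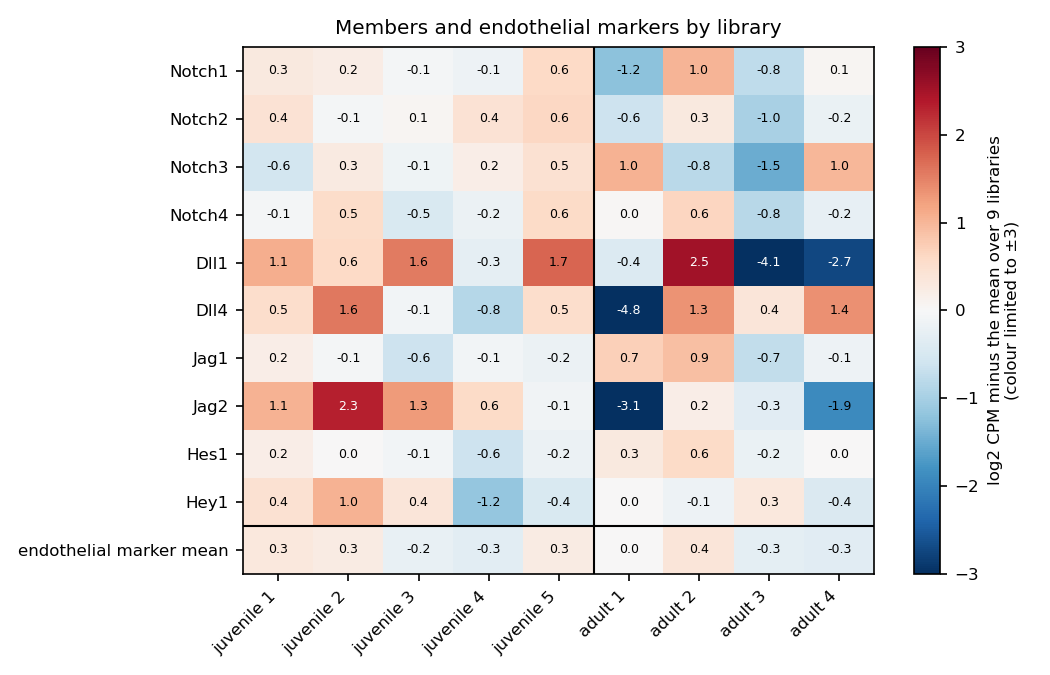
Log2 CPM of each member minus its mean over the 9 libraries, with the mean of 15 endothelial markers treated in the same way as the last row. Red is above and blue below a gene's mean, and colour is limited to 3 log2 units either way. The largest departures are the 3 members with a library at 0 counts (Dll1 in adult 3, Dll4 and Jag2 in adult 1).

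The members were then set against the endothelial content of each library, by subtracting the mean log2 CPM of the endothelial markers. That mean was 5.73 ± 0.30 (SD, n = 5) in juveniles and 5.61 ± 0.32 (SD, n = 4) in adults, a difference of 0.12 (two-sided exact permutation test, p = 0.603). Relative to it, Hes1 stood at 0.66 ± 0.22 in juveniles and 1.09 ± 0.11 in adults, a difference of -0.43 log2 units with overlapping ranges (two-sided exact permutation test, p = 0.0238 unadjusted, 0.287 adjusted over all genes). Jag2 stood at -3.33 ± 0.91 and -5.52 ± 1.43, a difference of 2.19 (exact permutation test, p = 0.0317 unadjusted, 0.317 adjusted over all genes). These were the 2 of 10 members with an unadjusted p under 0.05 on this scale, where 13.2% of all genes had one, and neither passed the adjustment. For Notch2 the difference was 0.55 (exact permutation test, p = 0.0873), and for the remaining 7 members the unadjusted p ran from 0.143 to 1. The smallest p that 9 libraries allow is 0.00794. Over 13 alternatives the exact permutation p ran up to 0.0857 for Hes1 and up to 0.0893 for Jag2. With the median of the endothelial markers in place of their mean, the difference of Hes1 was -0.29 (exact permutation test, p = 0.0794). That of Jag2 was then 2.33 (exact permutation test, p = 0.0238). Among the markers, Erg was at 1.04 and 0.125 CPM in adults 1 and 4 and at 21.2 and 13.6 CPM in adults 2 and 3. Its juvenile values were 8.48 to 14.3 CPM. Low Erg lowers the mean log2 CPM of the markers in adults 1 and 4, and its part in the differences above was not tested.

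Levels of different genes were compared per kilobase of merged exons. In juveniles Hes1 was highest, at 41.8 ± 8.31 CPM per kilobase (SD, n = 5), followed by Hey1 at 17.1 ± 9.05. Notch4 (7.26), Notch2 (7.15), Notch1 (3.94), Jag1 (3.68), Notch3 (3.50), Dll4 (3.23), Dll1 (2.66) and Jag2 (0.848) followed as means in the same unit. Of the neighbours in this order, only Notch2 over Notch1 had ranges that did not overlap. That separation depends on the length used. Notch1 has 14.2 kb of merged exons but a longest transcript of 9.49 kb, against 10.8 and 10.5 kb for Notch2. Per kilobase of the longest transcript, the juvenile ranges of Notch1 and Notch2 overlap. In adults the order was Hes1 (52.1), Hey1 (14.1), Notch4 (6.59), Jag1 (5.02), Notch2 (4.65), Notch3 (4.10), Dll4 (3.55), Notch1 (3.49), Dll1 (2.06) and Jag2 (0.172). There the ranges of Hes1 and Hey1, and those of Hey1 and Notch4, did not overlap, whereas every other neighbour pair overlapped. The low adult place of Notch1 also depends on the length used. Per kilobase of the longest transcript, its adult mean lay above those of Notch2, Notch3 and Dll4 and close to that of Jag1. Hes1 exceeded Hey1 in all 5 juvenile and all 4 adult libraries. Both targets were above every receptor in mean level, and Jag2 was last at both ages.

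**Figure D4:**
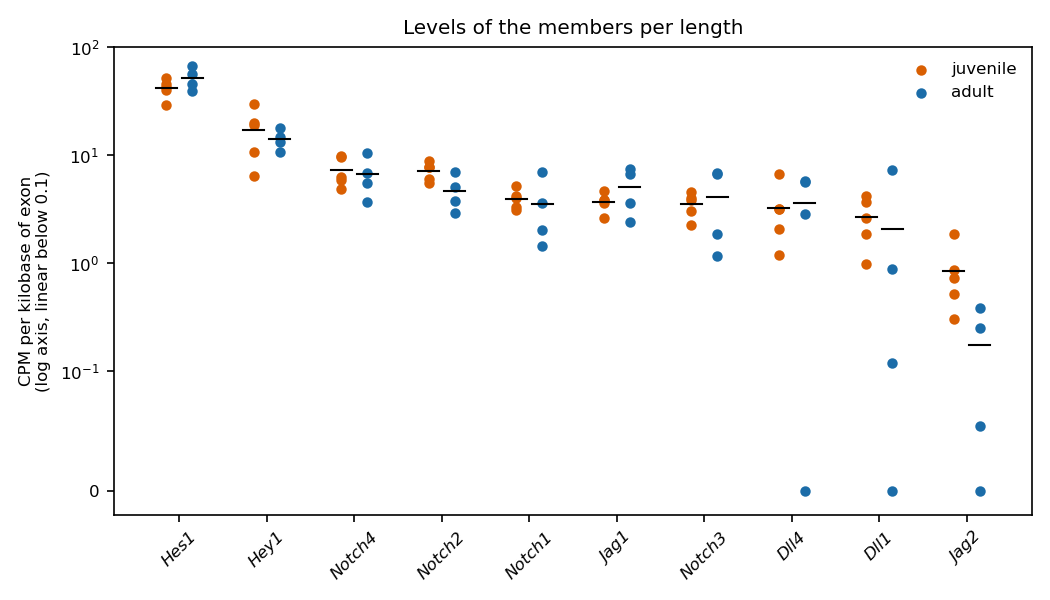
CPM per kilobase of merged exons for each member, ordered by the juvenile mean. Points are libraries, short lines are means of 5 juvenile and 4 adult libraries, and the vertical axis is logarithmic above 0.1 and linear below. Hes1 leads at both ages (41.8 and 52.1), and Dll4, Dll1 and Jag2 each have an adult library at 0.

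Summed per kilobase, the 4 receptors gave 17.0 to 28.4 CPM in juveniles and 9.75 to 26.1 CPM in adults, and the 4 ligands 6.46 to 14.2 CPM and 5.45 to 20.7 CPM. Within the receptor sum, Notch2 made up 23.9% to 37.9% in juveniles and 19.9% to 29.8% in adults. Notch4 made up 28.2% to 41.7% and 26.8% to 39.6%. Notch3 took 10.9% to 18.6% in juveniles but ranged from 7.11% in adult 2 to 36.2% in adult 1. Among the ligands, Jag1 held 27.2% to 58.8% in juveniles and 36.1% to 88.3% in adults, the highest share being in adult 1, which had no Dll4 or Jag2 count. Dll4 held 18.1% to 46.9% in juveniles, and in adults from 0% in adult 1 to 60.3% in adult 4. All these shares rest on merged exon lengths and are descriptions of single libraries, and those of the ages overlap for each gene named here.

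Likeness between genes was measured as the root mean square difference of centred log2 CPM over 9 libraries, where a smaller value is more alike. Among the members, Jag1 and Hes1 were the closest pair (0.36), then Notch1 and Notch2 (0.41), and Dll1 and Dll4 were farthest apart (2.65). Of all tested genes outside the members, Nr2f6 (0.15), C730034F03Rik (0.17) and Tnip2 (0.18) were nearest to Notch2, against a median of 0.83 over all genes. Nearest to Hes1 were Tubb6 (0.18), Emc4 (0.18) and Rap1b (0.18), with a median of 0.75. Jag2 had no such close neighbour: the nearest were Acot12 (0.46), Rnf113a1 (0.62) and Sept5 (0.64), with a median of 1.68.

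The other genes of the pathway were taken from a list of 69, of which 58 could be tested and 1 was called, Hes6. That is 1.72% of those tested, against 3.88% of all genes. The ranges of the ages were separate for 7 of 58 (12.1%, against 9.15% of all genes). Not tested for low counts were 11 genes, among them the ligands Dll3, Dlk1, Dlk2, Dner and Cntn1 and the targets Hes2, Hes3, Hes5, Hes7 and Gja5. Dner, Hes2 and Hes5 had 0 counts in every library.

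Hes6 belongs to the Hes family by sequence but is known to oppose Hes1 rather than to act as a typical target. It had 55.1, 76.2, 56.8, 58.8 and 61.0 CPM in juveniles and 38.4, 14.5, 14.6 and 31.2 CPM in adults. All 5 juveniles lay above all 4 adults. The means were 61.6 ± 8.46 CPM (SD, n = 5) and 24.7 ± 12.0 CPM (SD, n = 4), with a log2 fold change of 1.32 (SE 0.33) and an adjusted p of 0.0461 by edgeR and 0.00462 by DESeq2. The edgeR call was lost when any library except adult 1 was left out, with adjusted p from 0.0638 to 0.107, and log2 fold changes from 1.11 to 1.60 over all 9 such fits.

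Heyl, a Hey relative of mural cells, falls outside the rule for named genes and was chosen after its values were seen. It stood at 88.1, 132, 47.9, 68.9 and 50.2 CPM in juveniles and at 16.6, 27.9, 39.5 and 46.2 CPM in adults, again with no overlap. Its log2 fold change was 1.25 (SE 0.37), and its adjusted p was 0.0849 with edgeR and 0.0210 with DESeq2. The remaining targets tested, named after their values were seen, had log2 fold changes of both signs. Unc5b, a receptor of guidance cues, had a log2 fold change of 0.73 and separate ranges (adjusted p = 0.0927 with edgeR and 0.0339 with DESeq2). Values below 0 were those of Hey2 (-0.21), Nrarp (-0.55), Gja4 (-0.63) and Efnb2 (-0.66), with edgeR adjusted p from 0.283 to 0.890.

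In each further group of the pathway, 0 genes passed at the adjusted threshold with edgeR, and the gene with the smallest p is given here. Among Fringe and other glycosylation genes, which tune the receptors' choice of ligand, this was Rfng, with a log2 fold change of 0.72 (edgeR adjusted p = 0.274). Among genes for ligand endocytosis it was Neurl1a, a ubiquitin ligase of the Neuralized family. Neurl1a measured 11.8, 11.2, 16.4, 22.0 and 21.2 CPM in juveniles and 0, 8.02, 1.61 and 1.13 CPM in adults. Its ranges did not overlap, and its log2 fold change of 2.63 (SE 1.01) had an adjusted p of 0.183 with edgeR and 0.0364 with DESeq2.

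Psen2, a catalytic subunit of γ-secretase, led the proteases. It had 16.5, 14.98, 10.0, 13.1 and 11.2 CPM in juveniles and 21.3, 20.04, 31.5 and 45.1 CPM in adults. Every adult was above every juvenile, and the log2 fold change of -1.16 (SE 0.39) had an adjusted p of 0.125 with edgeR and 0.0173 with DESeq2. In the nuclear complex, the coactivator Maml2 had a log2 fold change of -1.96 (edgeR adjusted p = 0.191). Tle4, a Groucho-type corepressor, had one of -2.10 (edgeR adjusted p = 0.0845), with 83.4 CPM in adult 3 and 7.98 to 22.2 CPM in the other adults. Nedd4, a ubiquitin ligase acting on receptor turnover, had one of 0.54 (edgeR adjusted p = 0.174).

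**Figure D5:**
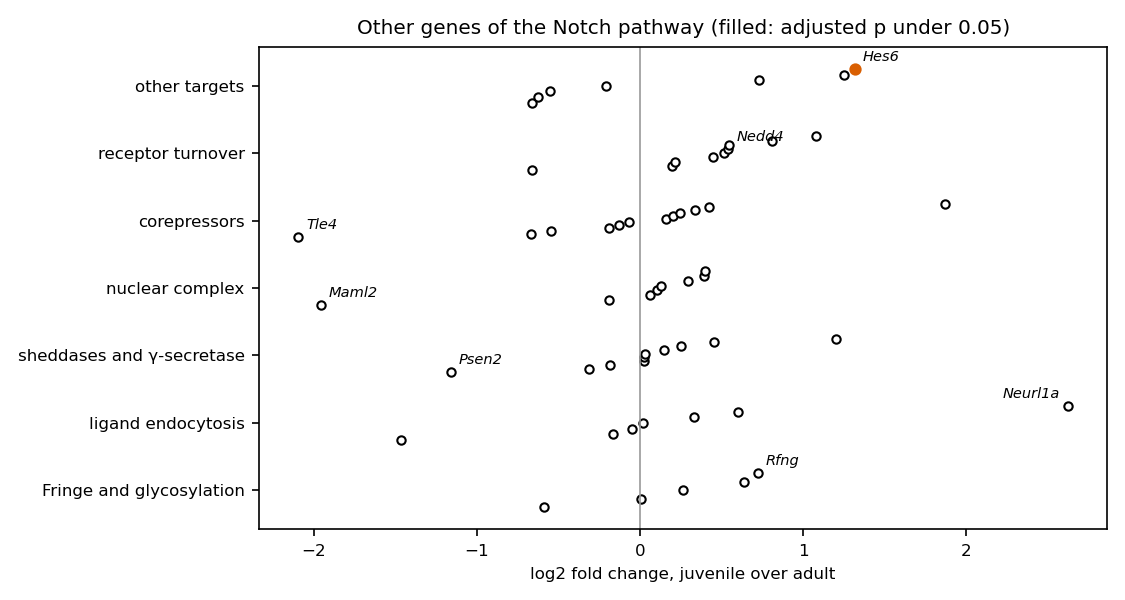
Log2 fold change, juvenile over adult, of the 58 tested pathway genes that are not members, by their role. The filled point, Hes6, is the 1 gene with an edgeR adjusted p under 0.05, and the name beside a point marks the gene with the smallest p of its role.

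Promoters of Hes and Hey genes are printed to show which of them carry the letters that RBPJ is known to bind. RefSeq windows of 300 bases, from 250 before to 50 after the start (GRCm38.p6), were given for 8 of 10 members, the 4 receptors and 4 ligands, and were searched on both strands for TGGGAA, the core of the RBPJ site. No window for Hes1, Hey1 or Heyl was used here. The core was absent from all 9 windows of the receptors and ligands, and 25.6% of 32851 windows over the genome hold it. Among the other targets, 3 of 10 windows held it, those of Hey2, Hes5 and Hes7. In Hey2 (chr10:30842734-30843033, minus strand) and Hes5 (chr4:154960673-154960972, plus strand) the core occurs once on each strand, in capitals below as TGGGAA or its complement TTCCCA. Hes6, the gene that was called, has a window at chr1:91413989-91414288, printed below, and another at chr1:91413173-91413472, both on the minus strand. Neither holds the core.
Hey2: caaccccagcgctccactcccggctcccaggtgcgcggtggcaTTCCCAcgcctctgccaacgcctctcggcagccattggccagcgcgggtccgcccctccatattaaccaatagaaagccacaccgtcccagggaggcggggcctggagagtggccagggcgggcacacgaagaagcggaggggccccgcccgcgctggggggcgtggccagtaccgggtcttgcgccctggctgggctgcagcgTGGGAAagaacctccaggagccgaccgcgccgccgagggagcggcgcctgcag
Hes5: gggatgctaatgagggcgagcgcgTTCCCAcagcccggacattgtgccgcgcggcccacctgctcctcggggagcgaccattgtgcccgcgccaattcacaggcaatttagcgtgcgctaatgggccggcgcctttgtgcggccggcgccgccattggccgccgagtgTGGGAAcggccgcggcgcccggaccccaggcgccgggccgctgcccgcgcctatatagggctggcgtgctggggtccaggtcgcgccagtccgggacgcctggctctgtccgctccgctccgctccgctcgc
Hes6: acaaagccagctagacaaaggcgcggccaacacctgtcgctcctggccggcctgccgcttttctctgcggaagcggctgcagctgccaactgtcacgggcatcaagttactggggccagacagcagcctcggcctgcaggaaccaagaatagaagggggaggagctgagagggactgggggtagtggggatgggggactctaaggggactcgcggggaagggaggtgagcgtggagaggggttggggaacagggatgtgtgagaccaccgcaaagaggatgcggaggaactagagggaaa
A match here is a description of letters and not a site of binding. Hes5, with the core on both strands, had 0 counts in every library, and Hey2, likewise with it on both strands, had 15.1 ± 5.005 CPM (SD, n = 5) in juveniles and 17.5 ± 7.36 CPM (SD, n = 4) in adults.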

How the data were processed

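Per the labels and the study's methods, RNA from the pooled pieces was amplified with SMART-Seq v4, made into libraries with Nextera XT and sequenced in pairs. The deposited values are raw counts per gene made by the authors with TopHat2, Bowtie2 and featureCounts on mm10, and the strand setting and annotation release are not given in the sources used here. Of 39179 genes, 96.0% matched a GENCODE M21 symbol. Genes were filtered with filterByExpr, scaled by TMM and tested with edgeR 4.0.16 (R 4.3.3) without covariates, over 5 juvenile and 4 adult libraries, at an adjusted p of 0.05. Alternatives were DESeq2 1.42.0, limma 3.58.1 (voom with sample quality weights), and other scalings and filters. Further ones were the replicate block, each library left out in turn, and a fit without the 2 juvenile libraries rich in Y-linked Ddx3y counts. Log2 CPM used a prior count of 2. The study describes the libraries as coming from different mice, although the labels do not name the animal behind each. No library was a repeat of another (the smallest chi-square per degree of freedom over 36 pairs was 16.9). The edgeR fit was tested on simulated data. The members and lists were chosen with earlier results of these data known. Named pathway genes were those called and the smallest p per group. Figures were drawn with matplotlib 3.10.9.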

Additional observations from a re-analysis of the deposited data

Results flagged for a closer look

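Over 48 groups of libraries checked for the members and the pathway genes named, 2 held 1 library that stood far from the rest, where chance would give about 2.4. For Dll1, adult 2 was at 30.6 CPM while the other adults were between 0 and 3.70 CPM. For Hes6, juvenile 2 was at 76.2 CPM while the other juveniles were between 55.1 and 61.0 CPM, all above every adult library.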

How the results depend on the processing

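The count of members called was 0 in all 18 alternatives. Of 177 member log2 fold changes under them, 160 kept their direction, 17 turned and 0 passed the threshold, and those of Notch2, Jag1, Jag2 and Hes1 kept their sign in each. The filter of 10 counts in every library dropped Dll1, Dll4 and Jag2, whose low counts limit their precision. The cause of the changes below was not tested.

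DESeq2 called 1490 genes in all (9.47% of those it tested) and 7 of the 69 pathway genes listed. The 7 were Neurl1a, Psen2, Aph1a, Tle4, Hes6, Heyl and Unc5b. Voom called 2 pathway genes (460 of 13418 genes in all), and the filter of 10 counts 3 (647 of 9847 genes in all). No pathway gene was called (0) with DESeq2 size factors, with library totals, without a filter, or without the 2 libraries rich in Ddx3y, where 73 genes were called in all. Library totals shifted the median log2 fold change of all genes to -0.18 and that of Notch4 to -0.025. Under voom, which was run with sample quality weights, Notch3 was at 0.19, Dll4 at 0.70 and Dll1 at 2.97. Without the 2 libraries rich in Ddx3y Dll4 was at 0.16. Same-numbered libraries did not deviate together (r from -0.03 to 0.03), and a fit with the replicate block called 89 genes, 0 pathway genes and 0 members, with Notch3 at 0.015 and Dll4 at 0.28.

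Leaving out 1 library at a time gave 262 to 651 genes called in all and 0 to 3 pathway genes. The log2 fold changes then ran from -0.10 to 0.74 for Notch1, -0.56 to 0.11 for Notch3, -0.071 to 0.42 for Notch4, -0.054 to 2.95 for Dll1, -0.58 to 0.19 for Dll4 and -0.020 to 0.49 for Hey1.

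Relative to endothelial markers, 2 members had an unadjusted exact permutation p under 0.05. With the median of the markers 1 did (Jag2), without the Ddx3y-rich libraries 0, and with 1 library left out 0 to 2. The exact permutation p of Hes1 ran from 0.0238 to 0.0857 and that of Jag2 from 0.0238 to 0.0893 over 13 alternatives each. That of Dll1 ran from 0.0179 to 0.357, the lowest without adult 2, where the difference was 3.10. Adult 2 was the only adult not below every juvenile for Dll1. Its removal therefore fixed that p at the smallest value the remaining libraries allow, and it carries no further weight. With the median of the markers Notch3 was at 0.14 and Hey1 at 0.14, and without the Ddx3y-rich libraries Notch4 was at -0.074 and Hey1 at 0.50. With 1 library left out the differences ran from -0.071 to 0.57 for Notch1, -0.40 to 0.44 for Notch3, -0.10 to 0.17 for Notch4, -0.84 to 1.32 for Dll4 and -0.20 to 0.20 for Hey1. Of 40 levels per kilobase recomputed, 4 moved by more than 1 SD, all with the length of the longest transcript: Notch1 in juveniles to 5.91, Hes1 to 58.0 and 72.2 and Hey1 in adults to 19.0.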
